A study of Mus musculus with 11 samples.

Results

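The genes described here are 8 antiviral factors that interferon is known to induce, namely Parp9, Parp10, Parp11, Parp12, Parp14, Dtx3l, Zc3hav1 and Rnf213, chosen by name from the 52636 genes listed for E15.5 mouse fetal livers. They were chosen by their known roles and with earlier results of these data in view, and no liver was treated with interferon. All 8 were among the 17243 genes with enough reads to be tested. RNA sequencing compared 3 WT, 2 Tnfr1-/-, 3 Casp8-/- Mlkl-/- and 3 Casp8-/- Tnfr1-/- livers, to ask which interferon-stimulated genes differ in fetal liver when caspase-8 and TNFR1 are both missing. The embryos were untreated, the knockouts were germline alleles on a C57BL/6 N background, and the sources name no transgene or Cre. TNFR1, encoded by Tnfrsf1a, is the main receptor for tumor necrosis factor, caspase-8 is a protease that triggers apoptosis and restrains necroptosis, and MLKL is the protein that executes necroptosis. Both double knockouts lacked caspase-8, the Casp8-/- Tnfr1-/- livers kept Mlkl, and the Casp8-/- Mlkl-/- livers kept Tnfr1. The sources used here do not say whether a sample was 1 embryo or a pool, or which embryos were littermates, so the p values measure the spread between these samples.

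ADP-ribosyltransferases of the PARP family use NAD+ to attach ADP-ribose to proteins or nucleic acids, and the interferon-induced members mostly attach single units or none. PARP9 works as a complex with the E3 ubiquitin ligase DTX3L, PARP14 carries macrodomains that bind or remove ADP-ribose, and PARP10, PARP11 and PARP12 are mono-ADP-ribosyltransferases. ZAP, the product of Zc3hav1, is a catalytically inactive family member that binds CpG-rich viral RNA and directs its decay. RNF213 is a giant ATPase and E3 ubiquitin ligase that coats intracellular pathogens and lipid droplets.

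The libraries held 23129212 to 35819339 counted reads. Levels are given as CPM, counts scaled to a common library size by TMM, and fold changes as log2 values from the quasi-likelihood test of edgeR, with p values adjusted by the Benjamini-Hochberg method over the 17243 genes. Casp8 measured 27.7 to 33.9 CPM in the 5 WT and Tnfr1-/- livers, 7.82 to 10.2 CPM in the Casp8-/- Mlkl-/- livers and 11.5 to 21.9 CPM in the Casp8-/- Tnfr1-/- livers. Mlkl measured 0.730 to 1.22 CPM in the Casp8-/- Mlkl-/- livers against 4.23 to 4.46 CPM in WT. Tnfrsf1a counted over the whole gene gave 47.1 to 53.5 CPM in WT livers, and the Tnfr1-/- pair lay within that range at 49.8 and 50.5 CPM, so this count does not check the Tnfr1 genotype. In the Casp8-/- Tnfr1-/- livers, labelled as lacking TNFR1 too, Tnfrsf1a measured 76.9, 76.0 and 425 CPM (replicates 1 to 3), all above the highest WT liver. The counts alone therefore do not show the loss of Tnfr1 in either genotype, and the groups rest on their labels. Hepatocyte markers, summed over 10 genes, were high in every liver, at 53860 CPM or more. A pair of libraries stood apart. Casp8-/- Tnfr1-/- replicate 3 had a TMM factor of 0.758 and 2081 CPM summed over 15 striated muscle markers, against 24.3 to 57.9 CPM in the other 10 libraries. It also had 73610 CPM summed over 9 tested erythroid markers, against 23480 and 23920 CPM in replicates 1 and 2 of its genotype and 34380 to 38210 CPM in WT. Casp8-/- Mlkl-/- replicate 1 had a TMM factor of 0.812, 237900 CPM of hepatocyte markers and 1398 CPM summed over 12 macrophage markers, the highest of all 11 libraries in both lists. Results are therefore also given without these 2 libraries, which leaves 2 livers of each double knockout.

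Parp14, Dtx3l and Parp9 lie together on mouse chromosome 16 (GRCm38), with Parp14 at chr16:35832874-35871544 on the minus strand, Dtx3l at chr16:35926511-35939151 on the minus strand and Parp9 at chr16:35938470-35972605 on the plus strand. Parp9 and Dtx3l run head to head with overlapping 5′ ends and share 458 exonic bases, which is 9.40% of the exonic bases of Parp9 and 8.0% of those of Dtx3l. The labels name an unstranded library kit and the study's methods a stranded one, and whether the counting used strand is not given in the sources used here, so reads in that overlap cannot be assigned between them. Parp12 (chr6:39086410-39118349) and Zc3hav1 (chr6:38305286-38354603), both on the minus strand of chromosome 6, have starts 763746 bases apart. Parp11 lies on the plus strand of the same chromosome at chr6:127446840-127494261, Parp10 on the minus strand at chr15:76231174-76243441 and Rnf213 on the plus strand at chr11:119393100-119487418. Rnf213 shares 8.74% of its exonic bases with the antisense transcript A930037H05Rik, which measured at most 1.38 CPM in any liver, and Parp10 shares 4.80% with Plec on the same strand.

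RefSeq promoter windows, running from 250 bases before to 50 bases after a start, were at hand for Parp11 (2 starts), Parp12, Dtx3l, Zc3hav1 and Rnf213, and none for Parp9, Parp10 and Parp14. They were searched on both strands for the core of the interferon-stimulated response element, GAAANNGAAA, and for the core of the gamma-activated site, TTCNNNGAA, 2 sequences found in promoters of many interferon-stimulated genes. The first occurred in 3.443% and the second in 8.298% of all 32851 RefSeq mouse promoter windows. Among the 6 windows both occurred in 1, that of the upstream Parp11 start, where TTTCGATTTC on the other strand spans bases -44 to -35 and TTCTTGGAA overlaps it at -37 to -29, counted back from the start. The 250 bases before that start (chr6:127446590-127446839, GRCm38, plus strand, both matches in capitals) are shown beside those before the starts of Parp12 (chr6:39118350-39118599, minus strand) and Rnf213 (chr11:119389849-119390098, plus strand, before a RefSeq start that lies upstream of the GENCODE start given above), which hold neither core, because Parp11 did not pass the test in the comparisons that follow whereas Parp12 and Rnf213 did.
Parp11: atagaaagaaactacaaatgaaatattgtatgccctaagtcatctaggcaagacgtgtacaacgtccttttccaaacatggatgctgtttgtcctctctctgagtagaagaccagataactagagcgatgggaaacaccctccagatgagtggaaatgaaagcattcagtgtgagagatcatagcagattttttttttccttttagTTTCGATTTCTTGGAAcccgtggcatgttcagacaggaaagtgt
Parp12: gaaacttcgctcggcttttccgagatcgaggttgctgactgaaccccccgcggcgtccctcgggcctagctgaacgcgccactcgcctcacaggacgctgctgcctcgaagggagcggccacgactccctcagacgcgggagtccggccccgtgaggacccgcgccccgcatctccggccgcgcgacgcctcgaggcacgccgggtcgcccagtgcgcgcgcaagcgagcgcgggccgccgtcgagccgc
Rnf213: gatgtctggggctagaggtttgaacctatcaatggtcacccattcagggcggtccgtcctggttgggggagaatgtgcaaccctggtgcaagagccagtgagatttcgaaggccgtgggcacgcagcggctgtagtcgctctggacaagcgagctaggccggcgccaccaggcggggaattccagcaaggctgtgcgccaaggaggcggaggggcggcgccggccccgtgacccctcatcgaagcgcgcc
GC made up 42.0% of the 300 bases of the Parp11 window, 73.7% of that of Parp12 and 67.0% of that of Rnf213. A match of letters is a description of the window, and its absence says only that these letters are not in these bases.

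Rnf213, Parp14, Parp12, Parp9, Dtx3l and Parp10, 6 of the 8 genes, were higher in Casp8-/- Tnfr1-/- livers than in WT, by 4.62-fold to 10.8-fold, and none was lower. The remaining pair, Zc3hav1 and Parp11, did not pass the test. Over all genes tested, 5.10% were higher and 0.702% lower in this comparison. In whole liver, more cells that express a gene and more of its RNA per cell cannot be told apart. The median log2 fold change of the 8 genes was 2.61, against -0.0015 over all genes tested. Each of the 3 Casp8-/- Tnfr1-/- livers lay above all 8 other livers for 7 of the 8 genes, all but Parp11, a pattern that 7.43% of all tested genes shared. Summed over the 8 genes, the level was 375 to 397 CPM in WT, 410 CPM in both Tnfr1-/- livers, 547 to 552 CPM in Casp8-/- Mlkl-/- livers and 1454 to 1728 CPM in Casp8-/- Tnfr1-/- livers.

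**Figure D1:**
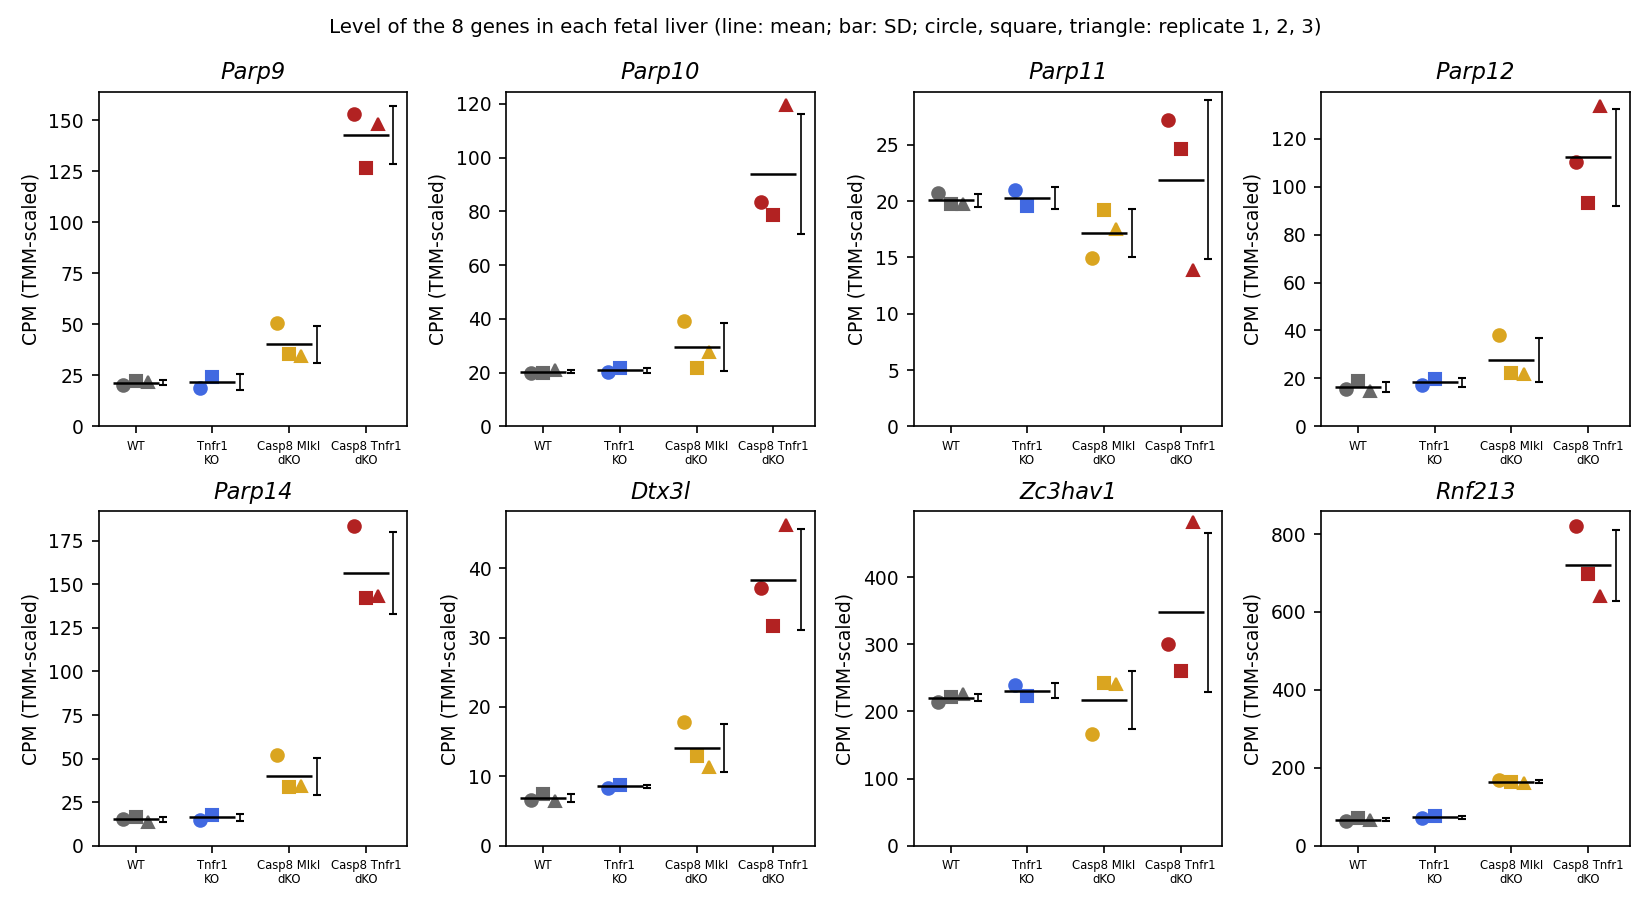
Level of each gene (y axis, TMM-scaled CPM from 0, one panel per gene) in every liver by genotype (x axis), with the mean as a line and the SD as a bar. The 3 Casp8-/- Tnfr1-/- livers sit above every other liver in 7 panels, and the Rnf213 panel shows a step to 160 to 168 CPM in the Casp8-/- Mlkl-/- livers.

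Rnf213, the E3 ligase, had the smallest p of all 17243 genes in the comparison of Casp8-/- Tnfr1-/- with WT. It measured 62.5, 70.3 and 67.2 CPM in the WT livers, 70.4 and 75.9 CPM in the Tnfr1-/- livers, 168, 164 and 160 CPM in the Casp8-/- Mlkl-/- livers and 821, 697 and 641 CPM in the Casp8-/- Tnfr1-/- livers (replicates 1 to 3 in turn). The double knockouts overlapped neither each other nor the 5 remaining livers. The log2 fold change of Casp8-/- Tnfr1-/- livers was 3.43 against WT (SE 0.147, adjusted p = 5.86e-06), 3.30 against Tnfr1-/- (adjusted p = 3.33e-05) and 2.14 against Casp8-/- Mlkl-/- (adjusted p = 0.000168). In reads, these libraries held 1627 to 2575 Rnf213 reads each in WT and Tnfr1-/- livers and 11255 to 26901 in Casp8-/- Tnfr1-/- livers.

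Parp14, the macrodomain PARP, changed by nearly as much. It measured 15.1, 16.5 and 13.9 CPM in WT, 14.9 and 17.5 CPM in Tnfr1-/-, 52.0, 33.5 and 34.1 CPM in Casp8-/- Mlkl-/- and 184, 142 and 143 CPM in Casp8-/- Tnfr1-/- livers. As with Rnf213, the ranges of the double knockouts were separate from each other and from the remaining livers. The log2 fold change of Casp8-/- Tnfr1-/- livers was 3.37 against WT (SE 0.213, adjusted p = 6.43e-05), 3.27 against Tnfr1-/- (adjusted p = 0.000246) and 1.97 against Casp8-/- Mlkl-/- (adjusted p = 0.00138).

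The partners Parp9 and Dtx3l rose together in Casp8-/- Tnfr1-/- livers. Parp9 measured 20.4, 22.4 and 21.8 CPM in WT, 19.1 and 24.4 CPM in Tnfr1-/-, 50.7, 35.5 and 34.7 CPM in Casp8-/- Mlkl-/- and 153, 126 and 148 CPM in Casp8-/- Tnfr1-/- livers. Dtx3l measured 6.65, 7.46 and 6.47 CPM in WT, 8.37 and 8.70 CPM in Tnfr1-/-, 17.9, 12.96 and 11.3 CPM in Casp8-/- Mlkl-/- and 37.1, 31.7 and 46.2 CPM in Casp8-/- Tnfr1-/- livers. For both genes the Casp8-/- Tnfr1-/- livers were the 3 highest and the Casp8-/- Mlkl-/- livers the next 3. Against WT, the Casp8-/- Tnfr1-/- livers had log2 fold changes of 2.73 for Parp9 (SE 0.187, adjusted p = 6.43e-05) and 2.48 for Dtx3l (SE 0.215, adjusted p = 0.000248). Against Casp8-/- Mlkl-/- livers, the log2 fold changes were 1.82 for Parp9 (adjusted p = 0.00126) and 1.45 for Dtx3l (adjusted p = 0.00859). The ratio of Parp9 to Dtx3l, in CPM per kb of the deposited gene length, was 1.94 to 2.18 in WT, 1.47 and 1.81 in Tnfr1-/-, 1.77 to 1.99 in Casp8-/- Mlkl-/- and 2.08 to 2.67 in Casp8-/- Tnfr1-/- livers, so that the ranges of WT and Casp8-/- Tnfr1-/- livers overlapped.

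Parp12 and Parp10, mono-ADP-ribosyltransferases outside the chromosome 16 group, also rose in Casp8-/- Tnfr1-/- livers, whereas Parp11, of the same kind, did not pass. Parp12 measured 15.6, 19.0 and 14.9 CPM in WT, 17.1 and 19.6 CPM in Tnfr1-/-, 38.2, 22.5 and 22.1 CPM in Casp8-/- Mlkl-/- and 110, 93.0 and 134 CPM in Casp8-/- Tnfr1-/- livers. Parp10 measured 19.9, 20.04 and 20.95 CPM in WT, 20.2 and 21.6 CPM in Tnfr1-/-, 39.1, 21.9 and 27.6 CPM in Casp8-/- Mlkl-/- and 83.5, 78.7 and 119 CPM in Casp8-/- Tnfr1-/- livers. The lowest Casp8-/- Mlkl-/- liver for Parp10 lay just above the highest Tnfr1-/- liver, and replicate 3 was the highest Casp8-/- Tnfr1-/- liver for both genes. Against WT, the log2 fold changes were 2.77 for Parp12 (SE 0.248, adjusted p = 0.000294) and 2.21 for Parp10 (SE 0.233, adjusted p = 0.000786). Against Casp8-/- Mlkl-/- livers, they were 2.02 for Parp12 (adjusted p = 0.00347) and 1.67 for Parp10 (adjusted p = 0.0067).

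Zc3hav1 was by far the most abundant of the 8 genes in WT per length. It measured 215, 222 and 226 CPM in WT, 239 and 223 CPM in Tnfr1-/-, 167, 243 and 240 CPM in Casp8-/- Mlkl-/- and 300, 260 and 482 CPM in Casp8-/- Tnfr1-/- livers. All 3 Casp8-/- Tnfr1-/- livers were above the remaining 8, but replicate 3 alone was far above its group. The log2 fold change against WT was 0.65 (95% interval 0.13 to 1.18), which did not pass the test (adjusted p = 0.129), and it was 0.59 against Tnfr1-/- (adjusted p = 0.311) and 0.68 against Casp8-/- Mlkl-/- livers (adjusted p = 0.218). Without the 2 libraries that stood apart, Zc3hav1 passed against WT at a log2 fold change of 0.36 (adjusted p = 0.00123) and against Tnfr1-/- at 0.29 (adjusted p = 0.0124).

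Parp11 was the one gene whose Casp8-/- Tnfr1-/- livers overlapped the rest. It measured 20.7, 19.7 and 19.7 CPM in WT, 20.98 and 19.6 CPM in Tnfr1-/-, 14.9, 19.2 and 17.5 CPM in Casp8-/- Mlkl-/- and 27.2, 24.6 and 13.9 CPM in Casp8-/- Tnfr1-/- livers. Replicates 1 and 2 of Casp8-/- Tnfr1-/- were the 2 highest of the 11 livers and replicate 3 was the lowest. The log2 fold change against WT was 0.13 (95% interval -0.38 to 0.64, adjusted p = 0.73). Without the 2 libraries that stood apart it was 0.38 against WT (adjusted p = 0.00539), 0.37 against Tnfr1-/- (adjusted p = 0.0154) and 0.51 against Casp8-/- Mlkl-/- livers (adjusted p = 0.00259).

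Leaving out those 2 libraries, all 8 genes passed as higher in Casp8-/- Tnfr1-/- livers against WT and against Tnfr1-/-, and 7 of 8, all but Zc3hav1, against Casp8-/- Mlkl-/- livers. The number of all tested genes called as higher rose as well in this fit, to 3017 in the first comparison, 2354 in the second and 2032 in the third. The fit with every liver called 879, 353 and 265 as higher. For the 6 genes that passed with every liver, the log2 fold changes against WT then lay between 2.01 for Parp10 and 3.53 for Rnf213. Striated muscle markers moved with replicate 3 of Casp8-/- Tnfr1-/-, as given above, and their part in its Parp11 and Zc3hav1 levels was not tested.

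The Tnfr1-/- livers were also controls for the loss of TNFR1 alone. Against them, the same 6 genes passed as higher in Casp8-/- Tnfr1-/- livers, with log2 fold changes of 2.72 for Parp9, 2.61 for Parp12 and 2.17 for both Parp10 and Dtx3l beside those of Rnf213 and Parp14 above, where 2.05% of all tested genes were higher and 0.122% lower. The median over the 8 genes was 2.39. With 1 liver left out at a time, the log2 fold changes against Tnfr1-/- ran from 1.96 to 2.29 for Parp10, 2.01 to 2.29 for Dtx3l and 2.47 to 2.74 for Parp12. These 3 genes lost the call only in fits without a Tnfr1-/- liver, where the lone liver left was assumed to vary like the other groups. Parp9, Parp14 and Rnf213 kept the call in all 11 fits. Between Tnfr1-/- and WT livers, none of the 8 genes passed in either direction, and by the same edgeR test 0% of all tested genes were higher and 0% lower, with 186 genes at an unadjusted p under 0.05. The log2 fold changes of the 8 genes between Tnfr1-/- and WT lay between 0.013 for Parp9 and 0.32 for Dtx3l, whose 95% interval ran from -0.20 to 0.83. DESeq2 and limma-voom likewise called 0 genes as higher in Tnfr1-/- livers. The fit of only these genotypes and the fit without the 2 libraries that stood apart did call genes as higher, as counted in the closing section. None of the 8 was among them.

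Casp8-/- Mlkl-/- livers occupied a step between WT and Casp8-/- Tnfr1-/- livers for 6 of the 8 genes. In these livers Rnf213 was the one gene of 17243 that passed against WT, 2.46-fold higher (log2 fold change 1.30, 95% interval 0.99 to 1.60, adjusted p = 0.0464), so that 0.0058% of all tested genes were higher and 0% lower, with 971 genes at an unadjusted p under 0.05. Its 3 livers averaged 164 ± 3.84 CPM (SD, n = 3), the narrowest relative spread of the 6 genes in that genotype. Rnf213 kept its call in 2 of the 11 fits that left out 1 liver, those without Casp8-/- Tnfr1-/- replicate 1 or 3, and its adjusted p reached 0.449 without WT replicate 1, while its log2 fold change stayed between 1.25 and 1.33. Without the 2 libraries that stood apart its adjusted p was 4.42e-06.

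Parp14 had a larger log2 fold change in Casp8-/- Mlkl-/- livers, 1.40 (95% interval 0.95 to 1.84), but did not pass (adjusted p = 0.0677). The log2 fold changes were 1.03 for Dtx3l (adjusted p = 0.31), 0.90 for Parp9 (adjusted p = 0.285), 0.74 for Parp12 (adjusted p = 0.867) and 0.54 for Parp10 (adjusted p = 0.875). For Rnf213, Parp14, Dtx3l, Parp9, Parp12 and Parp10, all 3 Casp8-/- Mlkl-/- livers lay above all 5 WT and Tnfr1-/- livers, as did 5.61% of all tested genes. Zc3hav1 and Parp11 had values of -0.027 and -0.22, with overlapping livers. The median over the 8 genes was 0.82, against 0.028 over all genes tested.

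Within the Casp8-/- Mlkl-/- genotype, replicate 1 was the highest liver for Rnf213, Parp9, Parp10, Parp12, Parp14 and Dtx3l and the lowest for Zc3hav1 and Parp11. Macrophage markers were also highest in this library, at 1398 CPM against 621 and 652 CPM in replicates 2 and 3, and neutrophil markers at 3433 CPM against 1309 and 1434 CPM. Their part in these levels was not tested. Without it and Casp8-/- Tnfr1-/- replicate 3, the fit called 5 of the 8 genes as higher in Casp8-/- Mlkl-/- livers than in WT, among 547 genes: Rnf213 (log2 fold change 1.28), Parp14 (1.16, adjusted p = 0.000101), Dtx3l (0.83, adjusted p = 0.0024), Parp9 (0.71, adjusted p = 0.00283) and Parp12 (0.44, adjusted p = 0.0353). DESeq2's Wald test with every liver called 79 genes as higher, 4 of the 8 among them, namely Rnf213, Parp14, Dtx3l and Parp9.

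The step from Casp8-/- Mlkl-/- to Casp8-/- Tnfr1-/- livers was tested directly, and the same 6 genes passed as higher in Casp8-/- Tnfr1-/- livers, where 1.54% of all tested genes were higher and 0.116% lower. Their log2 fold changes ran from 1.45 for Dtx3l to 2.14 for Rnf213, or 2.73-fold to 4.40-fold. When only these 2 genotypes were fitted, 1 of the 8 genes, Rnf213, still passed, among 10 genes called as higher. These comparisons share livers with those above, so their values are given side by side and are not independent of one another.

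**Figure D2:**
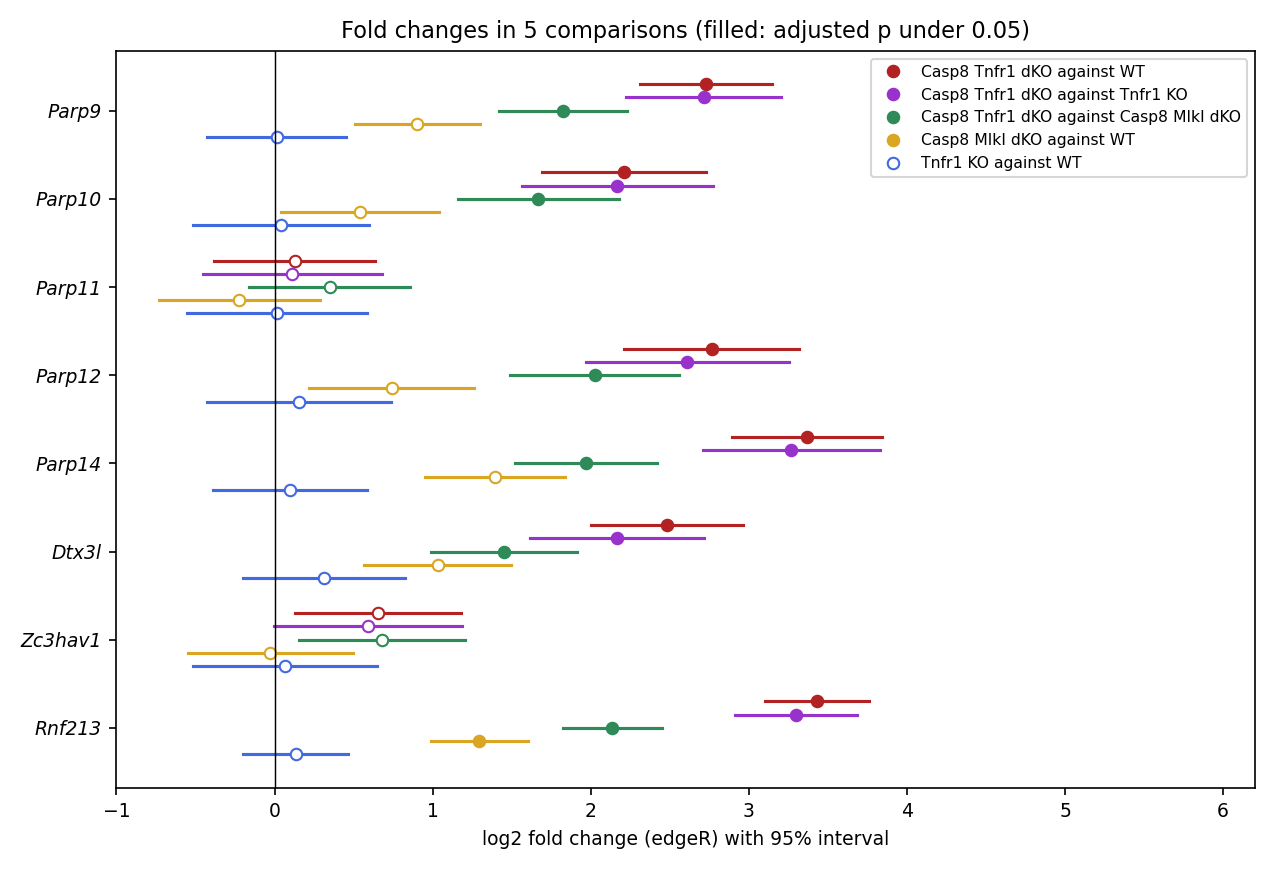
Log2 fold change (x axis) with its 95% interval for each gene (y axis) in 5 comparisons given by colour, filled where the adjusted p was under 0.05. The 6 genes have 3 filled points each for Casp8-/- Tnfr1-/- livers, Rnf213 alone has a filled point for Casp8-/- Mlkl-/- against WT, and the points of Parp11 and Zc3hav1 are open.

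Per kb of the deposited gene length, the WT order was Zc3hav1 at 33.9 ± 0.868 CPM per kb (SD, n = 3), Parp10 at 5.99 ± 0.168, Parp9 at 5.25 ± 0.249, Parp12 at 5.11 ± 0.666, Parp11 at 4.05 ± 0.117, Rnf213 at 3.95 ± 0.234, Dtx3l at 2.59 ± 0.200 and Parp14 at 2.04 ± 0.177 CPM per kb. Parp9 and Parp12 overlapped between livers, as did Parp11 and Rnf213, while the other neighbours in the order were separate. In Casp8-/- Tnfr1-/- livers Zc3hav1 was again first by its mean, at 53.3 ± 18.2 CPM per kb. It overlapped Rnf213, now second at 42.6 ± 5.44 CPM per kb and above Parp9 in every liver. Rnf213 was above Zc3hav1 in replicate 1 (48.6 against 46.0 CPM per kb) and replicate 2 (41.3 against 39.9). In replicate 3, a library that stood apart, Rnf213 was below Zc3hav1 (38.0 against 74.0 CPM per kb). Parp9 (34.8 ± 3.49), Parp12 (34.7 ± 6.30), Parp10 (27.7 ± 6.56) and Parp14 (21.1 ± 3.17 CPM per kb) formed a run in which each overlapped the next, followed by Dtx3l (14.5 ± 2.76) and, last, Parp11 (4.42 ± 1.42 CPM per kb). The level of Rnf213 per length was 0.112 to 0.122 times that of Zc3hav1 in WT livers, 0.257 to 0.388 times in Casp8-/- Mlkl-/- livers and 0.513 to 1.06 times in Casp8-/- Tnfr1-/- livers, 3 ranges that did not overlap. The deposited lengths of Rnf213 and Zc3hav1 equal their exonic bases in GENCODE, but those of the 6 other genes are shorter, by the most for Dtx3l (2648 against 5725 bases) and Parp11 (4958 against 7026 bases), so the places of these 6 genes in both orders depend on which length is used.

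**Figure D3:**
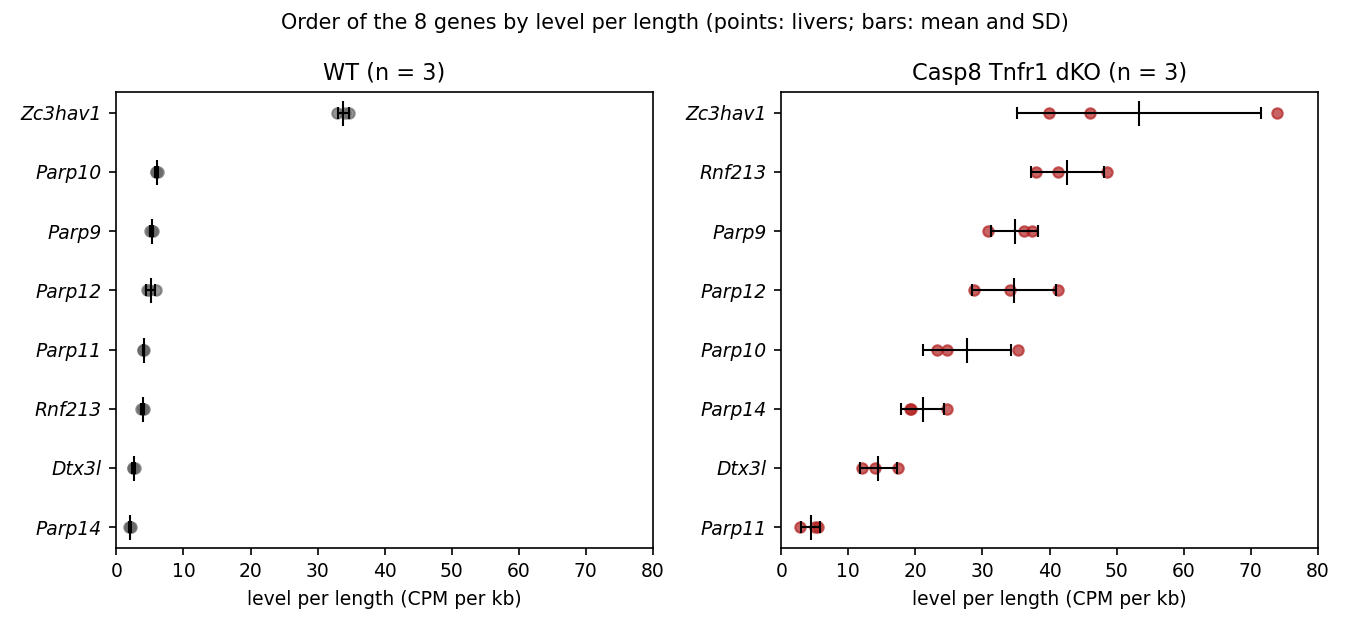
Level per length (x axis, CPM per kb) of the 8 genes (y axis, in order of their mean) in WT and Casp8-/- Tnfr1-/- livers, with a point per liver and the mean and SD. Zc3hav1 stands alone at 33.9 CPM per kb in WT, while Rnf213 at 42.6 CPM per kb overlaps it in Casp8-/- Tnfr1-/- livers.

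Profiles over the 11 livers were compared as the root mean square (RMS) difference of log2 CPM, each gene centred on its WT mean. Parp14 and Rnf213 were the closest pair at 0.165, then Parp9 and Parp12 at 0.169 and Parp9 and Dtx3l at 0.233. The widest difference, 1.94, was that of Parp11 and Rnf213. Parp11 and Zc3hav1, the pair that did not pass, differed by 0.514 from each other and by 0.927 or more from the remaining 6 genes. The adjacent genes Dtx3l and Parp14 differed by 0.540, more than Parp9 and Parp12, which are on different chromosomes. These values describe 11 libraries whose genotypes and depth the genes share.

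**Figure D4:**
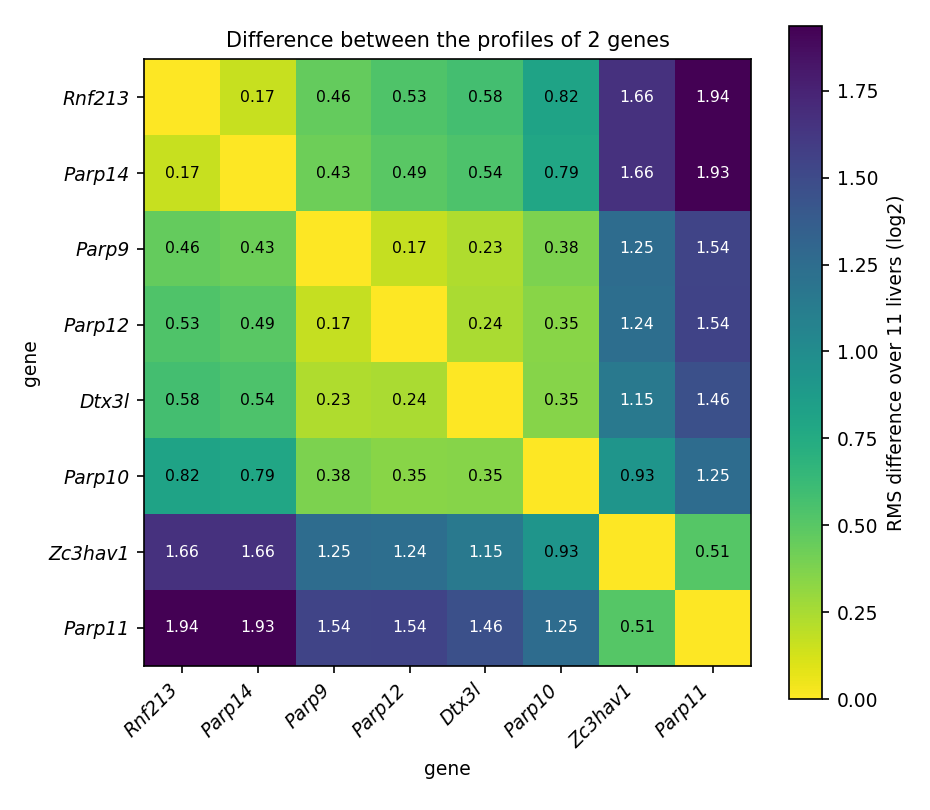
RMS difference in log2 units over 11 livers between the profiles of each pair of genes (both axes list the 8 genes), from light for small to dark for large. Rnf213 and Parp14 form 1 light block at 0.17, Parp9, Parp12, Dtx3l and Parp10 another at 0.17 to 0.38, and Zc3hav1 and Parp11 are dark against the rest.

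By the same measure over the other 17235 tested genes, the gene nearest to Parp9 was Irgm1 (RMS difference 0.109), an immunity-related GTPase, which averaged 35.6 CPM in WT and 229 CPM in Casp8-/- Tnfr1-/- livers. The nearest to Parp10 was Stat2 (0.130), to Parp12 Trim30a (0.156), to Dtx3l the RNA sensor gene Ddx58 (0.168), to Parp14 the guanylate-binding protein gene Gbp7 (0.270) and to Rnf213 the RNA helicase gene Dhx58 (0.296). Dhx58 averaged 3.33 CPM in WT and 31.5 CPM in Casp8-/- Tnfr1-/- livers. Parp11 lay nearest to Vps36 (0.123), a subunit of an endosomal sorting complex, at 33.4 and 33.1 CPM in the same genotypes, and Zc3hav1 to Fnbp4 (0.0923) at 110 and 159 CPM.

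Among 10 other ADP-ribosyltransferase genes, 3 were higher and none lower in Casp8-/- Tnfr1-/- livers than in WT. Parp3, a DNA repair enzyme, averaged 17.3 ± 5.97 CPM against 2.74 ± 0.596 CPM (SD, n = 3 each, log2 fold change 2.66, adjusted p = 0.000744) beside 2.77 for Parp12. Parp4, the vault PARP, had a log2 fold change of 0.95 (adjusted p = 0.00626) and Parp8 one of 0.81 (adjusted p = 0.0262). Parp1 and Parp2, the main DNA damage PARPs, did not pass, with log2 fold changes of -0.55 and -0.18. The median over this list was 0.51, and against Tnfr1-/- and against Casp8-/- Mlkl-/- livers 1 of its 10 genes passed as higher. None of 6 genes for hydrolases that remove or degrade ADP-ribose passed in any of the 5 comparisons, and their log2 fold changes in Casp8-/- Tnfr1-/- livers against WT lay between -0.66 and -0.014.

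None of the 3 tested Deltex relatives of Dtx3l passed in any comparison, and Dtx1 had too few reads, at most 19 in a library. Of 7 genes for ZAP cofactors and exosome subunits, 1 was higher in Casp8-/- Tnfr1-/- livers than in WT: Trim25, an E3 ligase that ZAP needs for its activity, averaged 221 ± 16.4 CPM against 121 ± 1.62 CPM (SD, n = 3 each, log2 fold change 0.87, adjusted p = 0.00333). The median over these 7 genes was -0.25. Trim25 also passed against Tnfr1-/- livers (log2 fold change 0.805, adjusted p = 0.0164) but not against Casp8-/- Mlkl-/- livers (0.412, adjusted p = 0.139).

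Of 12 tested genes of interferon signalling, 6 were higher and none lower in Casp8-/- Tnfr1-/- livers than in WT. Irf7, a transcription factor that amplifies interferon responses, averaged 190 ± 35.5 CPM against 7.49 ± 0.304 CPM (SD, n = 3 each, log2 fold change 4.67, adjusted p = 9.08e-05). The log2 fold changes were 2.13 for Stat2 (adjusted p = 0.00264) and 1.89 for Irf1 (adjusted p = 0.00966). Of the same 12 genes, 5 passed as higher against Tnfr1-/- livers and 4 against Casp8-/- Mlkl-/- livers. Irf1 did not pass against Casp8-/- Mlkl-/- livers (log2 fold change 1.31, adjusted p = 0.0826). Reads of the interferon genes Ifnb1 and Ifng, 3 and 9 over all 11 libraries, were too few to test. In Casp8-/- Mlkl-/- livers against WT, none of the genes of these 5 lists passed.

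**Figure D5:**
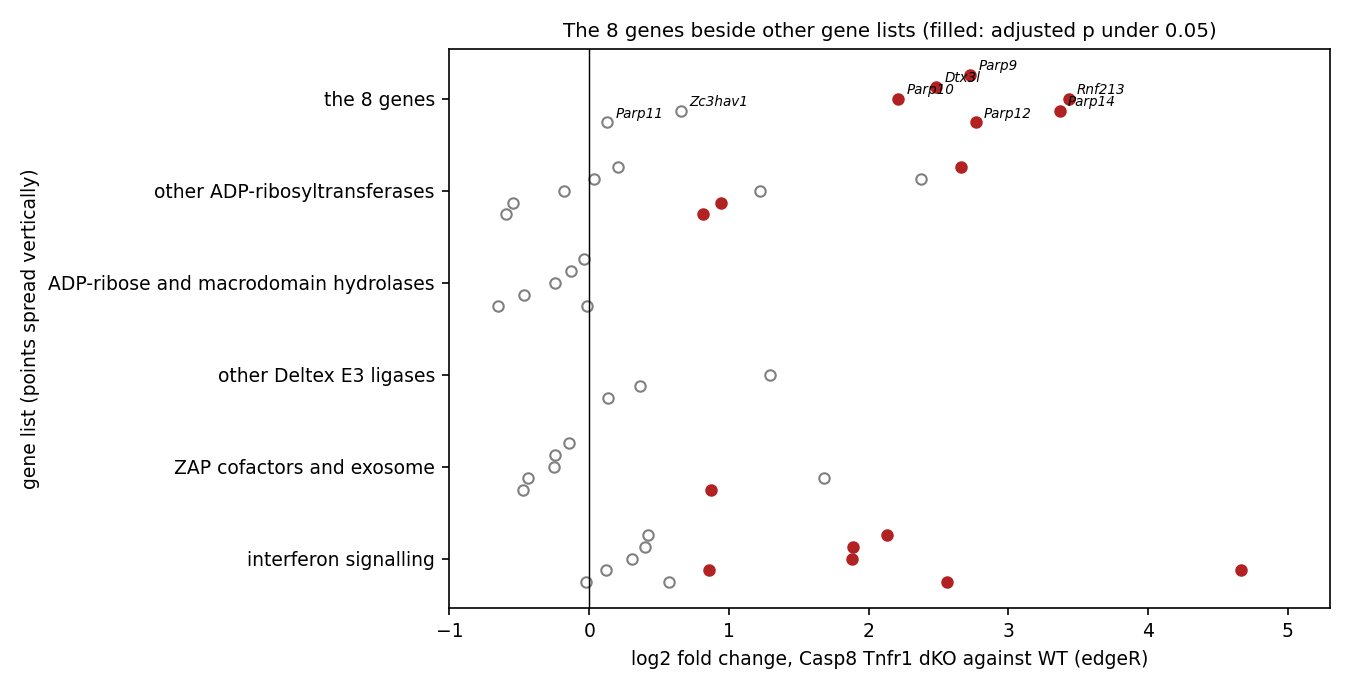
Log2 fold change of Casp8-/- Tnfr1-/- livers against WT (x axis) for the 8 genes and 5 other gene lists (y axis, points spread vertically for legibility), filled where the adjusted p was under 0.05. Filled are 6 of the 8 genes, 3 of 10 other ADP-ribosyltransferases, 1 of 7 ZAP cofactor and exosome genes and 6 of 12 interferon signalling genes, and no hydrolase or Deltex gene.

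Neutrophil markers, summed over 10 genes, were at 5279 to 14820 CPM in Casp8-/- Tnfr1-/- livers against 1127 to 3433 CPM in the other 8. Of the 10, 4 passed as higher against WT. The Casp8-/- Mlkl-/- livers had 3433, 1309 and 1434 CPM (replicates 1 to 3), with replicates 2 and 3 within the WT range of 1127 to 1637 CPM. The 12 macrophage markers summed to 392 to 470 CPM in Casp8-/- Tnfr1-/- livers and 439 to 559 CPM in WT, and 1 passed as higher and 2 as lower. Their sums were 497 to 529 CPM in Tnfr1-/- livers and 621 to 1398 CPM in Casp8-/- Mlkl-/- livers. Endothelial markers, summed over 10 genes, lay at 448 to 504 CPM in WT and at 512.5, 473.8 and 982.7 CPM in Casp8-/- Tnfr1-/- livers (replicates 1 to 3). In Casp8-/- Tnfr1-/- livers, 1 of these 10 genes passed as higher against WT and none as lower. Their sums were 455.1 to 512.3 CPM in Tnfr1-/- livers and 531.7 to 689.2 CPM in Casp8-/- Mlkl-/- livers. Erythroid markers were below every WT liver in replicates 1 and 2 of Casp8-/- Tnfr1-/- and above them in replicate 3, as given above, and none of the 9 tested passed against WT. They were also below every WT liver in Casp8-/- Mlkl-/- livers (25930 to 29880 CPM) and in Tnfr1-/- livers (30140 to 32300 CPM). In Casp8-/- Mlkl-/- livers against WT, none of the macrophage, endothelial or erythroid markers passed. The part of these cell types in the levels of the 8 genes was not tested.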

How the data were processed

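Total RNA of E15.5 fetal livers was sequenced as single-end reads. The authors aligned reads to GRCm38/mm10 with GSNAP and analysed uniquely mapped reads with limma. The counts deposited for each liver are raw numbers of reads on the exons of a gene. The width the authors deposited beside them is a gene length in bases, used here for CPM per kb. The counting tool, its annotation and its use of strand are not given in the sources used here.

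Counts were read in R 4.3.3. Genes were kept by filterByExpr (minimum count 10), libraries were scaled by TMM, and the 4 genotypes were fitted together with edgeR 4.0.16 (glmQLFit and glmQLFTest, prior degrees of freedom 2.92, common biological coefficient of variation 33.3%). Calls are at an adjusted p of 0.05 (Benjamini-Hochberg over 17243 genes), intervals are 95%, and log2 CPM used a prior count of 2. The fit was tested on simulated data. Alternatives were DESeq2 1.42.0, limma-voom (limma 3.58.1), other scaling and filters, single genotype pairs, a replicate block and leaving out livers. The 8 genes and all lists were chosen with earlier results of these data known. Genes named outside the 8 are those called in Casp8-/- Tnfr1-/- livers against WT (at most the 4 largest of a list), the nearest gene by profile, and the targeted genes; Parp1 and Parp2, Dtx1, Ifnb1 and Ifng, and the overlapping genes were named outside this rule. A further gene that the rule names is not reported here. Positions and symbols are from GENCODE M21 and promoter windows from RefSeq, build GRCm38.p6. Reads carried no molecular identifiers.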

Additional observations from a re-analysis of the deposited data

How the results depend on the processing

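Over 19 alternatives, 760 values of the 8 genes in 5 comparisons were recomputed: 710 kept direction and side of the threshold, 23 lost a call, 15 gained one and 12 changed sign. Of 342 values of the 6 called genes in the 3 comparisons of Casp8-/- Tnfr1-/- livers, none changed sign, 13 lost the call and the lowest log2 fold change was 1.30.

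The number of all tested genes called as higher in Casp8-/- Tnfr1-/- livers against WT, against Tnfr1-/- and against Casp8-/- Mlkl-/- was 879, 353 and 265 as reported, 1775, 1107 and 785 by DESeq2's Wald test, 451, 53 and 10 with only the 2 genotypes compared, and 3017, 2354 and 2032 without both livers that stood apart. It ranged over 270 to 1297, 29 to 759 and 71 to 518 when 1 liver was left out. In Casp8-/- Mlkl-/- livers against WT it was 1 as reported, 3 with DESeq2 size factors, 79 by DESeq2, 11 without a filter on low counts, 3 with a mean of at least 10 counts, 547 without both livers and 0 to 24 with 1 liver left out. In Tnfr1-/- against WT it was 138 with only these genotypes and 59 without both livers. Of the 8 genes, 6 passed as reported against Tnfr1-/- and 3 to 6 with 1 liver left out, 1 passed against Casp8-/- Mlkl-/- with only the 2 genotypes compared, and in Casp8-/- Mlkl-/- against WT 4 passed by DESeq2, 2 without a filter, 5 without both livers and 0 to 2 with 1 liver left out. The sources used here do not say whether livers with the same replicate number are paired. Over 15 pairs with the same number, correlations of deviations from the genotype means ran from -0.297 to 0.275 and 4 were over 0.1. Pairs with different numbers were not compared, so these values cannot decide whether the livers are paired. With a replicate block, 532, 182 and 130 genes were called as higher in the comparisons of Casp8-/- Tnfr1-/- livers and 0 genes, and 0 of the 8, as higher in Casp8-/- Mlkl-/- livers against WT. The cause of these moves was not tested.

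Changes of sign were of values near 0. With 1 liver left out, log2 fold changes ran from -0.051 to 0.37 for Parp11 in Casp8-/- Tnfr1-/- against WT, -0.069 to 0.35 for Parp11 against Tnfr1-/-, and -0.12 to 0.13 for Zc3hav1 in Casp8-/- Mlkl-/- against WT, where it was 0.13 without both livers. In Tnfr1-/- against WT, Parp9 was -0.0050 by limma-voom, -0.0037 with the replicate block and -0.17 to 0.18 with 1 liver left out, Parp11 was -0.082 with the replicate block and -0.038 to 0.064, Parp10 -0.0093 to 0.090 and Parp14 -0.020 to 0.21.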
